A study of Mus musculus with 8 samples.

Results

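ATAC-seq peaks with their summit inside protein-coding sequence, away from any promoter, were examined in granule neuron progenitors (GNPs) of the mouse cerebellum. ATAC-seq marks open chromatin by the sites at which the Tn5 transposase inserts sequencing adapters. A peak was counted here when it lay on an autosome, its summit was in a coding exon of a protein-coding gene, and the summit was more than 1 kb from every annotated transcription start site (TSS). The rule used position alone and no signal value. It chose 2507 of 152984 peaks of the wild-type (WT) list, 2688 of 174407 of the mutant list and 1800 of 106974 of the heterozygous (het) list. Peaks of all lists within 300 bp of each other were joined, and these 6995 peaks fell in 3757 of 186413 autosomal regions.

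The 8 libraries were made from GNPs isolated at postnatal day 7, with 3 from WT mice (Chd7 f/f, no Cre), 2 from het mice (Atoh1-Cre::Chd7 f/+) and 3 from homozygous mutant mice (Atoh1-Cre::Chd7 f/f). All groups therefore carry a floxed Chd7 allele, and only het and mutant mice carry Cre, driven by the Atoh1 promoter of the granule lineage. The study notes that Chd7 protein remained in the posterior lobe of mutant cerebella, and it calls the WT and mutant replicates technical. Each deposited list was called on the pooled libraries of a genotype, so no spread between libraries can be given and no test between genotypes was run. The intervals below cover counting error alone.

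Chd7 is an ATP-dependent chromatin remodeller of the CHD family, and Atoh1-positive progenitors proliferate in the external granule layer before they differentiate into granule neurons. Accessible regions mostly lie at promoters and in non-coding DNA, where transcription factors displace nucleosomes. Coding sequence can also be accessible, and some coding exons act as enhancers, so that the same bases carry a reading frame and factor binding sites. Of 8 GNP marker genes, 7 had a WT peak summit within 1 kb of a TSS, 7 a het and 8 a mutant summit, with Zic2 the gene that lacked one. Of 18 markers of other cerebellar cells, 14 had a WT, 12 a het and 13 a mutant summit there, and Pcp2, Sox10, Cx3cr1 and Aif1 had none in any list. Their summit pileup reached 50 in WT and 52 in mutant, against 84 and 88 for the GNP markers. The share of other cell types in the libraries, and its part in the results below, was not tested.

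The WT and mutant lists were comparable in depth, with 50394313 and 51030229 tags after duplicate filtering, but the tag size was 107 bp in WT and 76 bp in mutant. The het list had 30923002 tags and was called with a shift of the reads and an extension of 200 bp, against a fragment length of 90 bp in WT and 88 bp in mutant. Het peaks were therefore compared by presence and not by height, and het pileups below stand beside the others without comparison.

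The following windows, which reach 100 bases to either side of the summit, show coding-exon peaks to which the results below return. They are mm10 reference bases on the strand of the gene, 5′ to 3′, with coding bases in capitals and intron bases in lower case. Slc1a6 and Cntnap2 were chosen as strong peaks present in all 3 lists, and Chd7 as the targeted gene.
Slc1a6 chr10:78812758-78812958 (plus strand): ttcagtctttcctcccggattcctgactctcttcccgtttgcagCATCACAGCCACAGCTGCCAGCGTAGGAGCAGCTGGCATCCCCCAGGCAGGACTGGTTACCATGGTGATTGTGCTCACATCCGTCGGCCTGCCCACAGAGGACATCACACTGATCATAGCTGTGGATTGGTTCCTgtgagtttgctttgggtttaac
Cntnap2 chr6:46347077-46347277 (plus strand): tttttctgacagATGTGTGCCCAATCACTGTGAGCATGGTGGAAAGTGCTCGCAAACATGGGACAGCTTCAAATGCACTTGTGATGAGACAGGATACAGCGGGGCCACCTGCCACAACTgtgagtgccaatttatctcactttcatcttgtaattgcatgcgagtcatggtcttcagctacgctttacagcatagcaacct
Chd7 chr4:8865788-8865988 (plus strand): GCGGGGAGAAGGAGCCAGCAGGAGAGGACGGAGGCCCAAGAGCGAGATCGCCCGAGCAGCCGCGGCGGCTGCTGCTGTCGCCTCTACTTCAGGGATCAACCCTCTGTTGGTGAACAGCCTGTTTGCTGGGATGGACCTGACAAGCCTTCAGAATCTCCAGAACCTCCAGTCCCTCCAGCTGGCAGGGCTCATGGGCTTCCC
The windows of Lrp1b, present in WT alone, and Zfp462, present in mutant alone, follow.
Lrp1b chr2:40647032-40647232 (minus strand): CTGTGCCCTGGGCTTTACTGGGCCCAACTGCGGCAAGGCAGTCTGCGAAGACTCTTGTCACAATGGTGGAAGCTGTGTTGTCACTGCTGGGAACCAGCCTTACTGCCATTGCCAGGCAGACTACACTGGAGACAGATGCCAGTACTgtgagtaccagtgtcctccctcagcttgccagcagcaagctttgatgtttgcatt
Zfp462 chr4:55013539-55013739 (plus strand): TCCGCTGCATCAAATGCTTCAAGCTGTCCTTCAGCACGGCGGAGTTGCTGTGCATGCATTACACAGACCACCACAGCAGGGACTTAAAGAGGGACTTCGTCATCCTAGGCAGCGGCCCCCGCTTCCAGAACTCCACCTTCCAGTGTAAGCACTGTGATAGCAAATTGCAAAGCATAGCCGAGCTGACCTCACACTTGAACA
The peaks at the windows of Trrap and Epha3 had the largest falls in height from WT to mutant among high peaks.
Trrap chr5:144845473-144845673 (plus strand): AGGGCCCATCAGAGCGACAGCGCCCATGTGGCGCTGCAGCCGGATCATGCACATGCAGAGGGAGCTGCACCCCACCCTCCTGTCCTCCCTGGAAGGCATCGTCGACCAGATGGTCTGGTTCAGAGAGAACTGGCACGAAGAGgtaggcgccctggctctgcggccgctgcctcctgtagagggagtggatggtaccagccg
Epha3 chr16:63566585-63566785 (minus strand): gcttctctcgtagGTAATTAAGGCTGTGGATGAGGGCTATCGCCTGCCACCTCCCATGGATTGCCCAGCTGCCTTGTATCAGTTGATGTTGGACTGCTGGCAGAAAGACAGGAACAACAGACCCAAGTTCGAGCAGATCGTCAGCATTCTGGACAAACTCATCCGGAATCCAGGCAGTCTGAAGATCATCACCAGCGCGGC
The coding part made up 135 bases of the window in Slc1a6 and 107 in Cntnap2, where the summit sat in a short exon and the window ran into both introns. In Chd7 and Zfp462 the whole window was coding.

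Coding-exon peaks made up 1.68% of autosomal WT peaks (95% Wilson interval 1.61 to 1.74), 1.58% of mutant peaks (1.52 to 1.64) and 1.72% of het peaks (1.65 to 1.80). They were of ordinary height. The median pileup, the number of extended tags over the summit, was 17 in WT coding-exon peaks against 16 in all autosomal WT peaks, and 16 against 16 in mutant. Strong peaks were fewer. The strongest decile of the WT list by -log10 q held 126 coding-exon peaks, 5.03% of them, and that of the mutant list 140, or 5.21%. Intron peaks were alike in this respect, at 5.54% in WT. The median coding-exon peak was 208 bp wide in WT, 193 bp in mutant and 363 bp in het. In the 250 bp beyond the 1 kb limit, 136 WT peaks had a median pileup of 21, and in the 250 bp within it 184 coding summits, not counted here, also had 21.

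Coding sequence more than 1 kb from a TSS covered 23.9 Mb, 0.998% of the autosomes. It held 105 WT peaks per Mb, more than introns at 60.3 or intergenic DNA at 49.3 per Mb. The order turned once GC content was held constant. At 55 to 60% GC, coding sequence held 157 WT peaks per Mb, introns 322 and intergenic DNA 340. At 60% GC or more the values were 340, 442 and 383 per Mb. At 45 to 50% GC they were closer, at 71.1, 79.9 and 81.9. The mutant list gave the same order at 55 to 60% GC, with 162 peaks per Mb in coding sequence, 344 in introns and 354 in intergenic DNA. In the het list the values in that bin were 111, 246 and 251. Coding sequence was thus denser in peaks than introns over all bases, and less dense in every GC bin of the WT list.

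**Figure D1:**
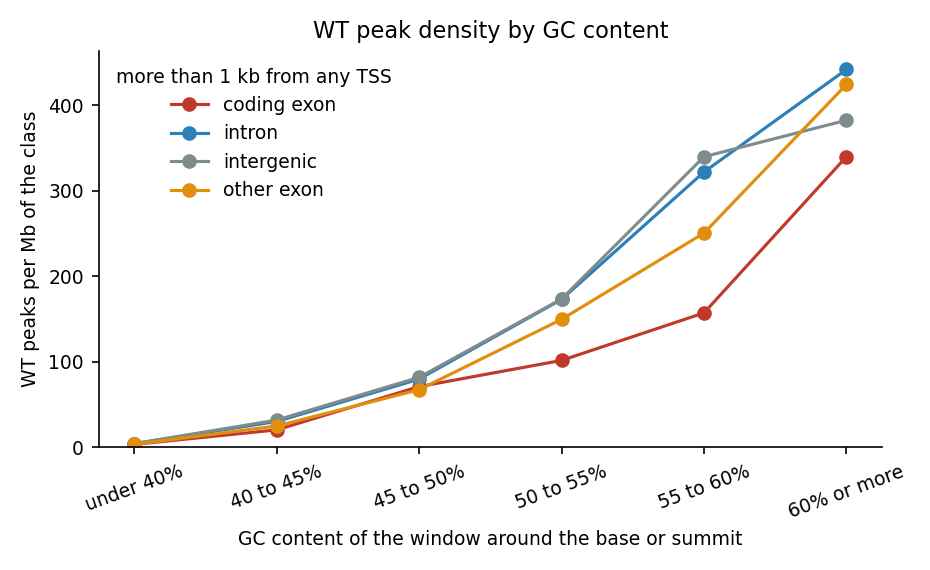
WT peaks per Mb of sequence (y axis) for 4 classes of sequence more than 1 kb from any TSS, by GC content of the window of 100 bases to either side of each base or summit (x axis, percent). Coding exons lie below introns in each bin, at 157 against 322 peaks per Mb at 55 to 60% GC.

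Peaks were spread unevenly over exons of different length. Coding intervals under 100 bp held 46.3 WT peaks per Mb, and those from 100 to under 200 bp held 87.8. Density was 151 per Mb from 200 to under 500 bp and 148 from 500 to under 1000 bp, and it was 84.3 in intervals of 2000 bp or more. The mutant list ran from 57.6 per Mb under 100 bp to 163 per Mb from 500 to under 1000 bp. Long exons nevertheless more often held a peak. Of the 691 intervals of 2000 bp or more, 117 had a WT peak (16.9%), against 139 of 43897 under 100 bp (0.317%). The exon under the median WT summit was 300 bp long, the summit lay 80 bp from the nearest exon edge, and 33.1% of WT peaks were wider than their exon.

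**Figure D2:**
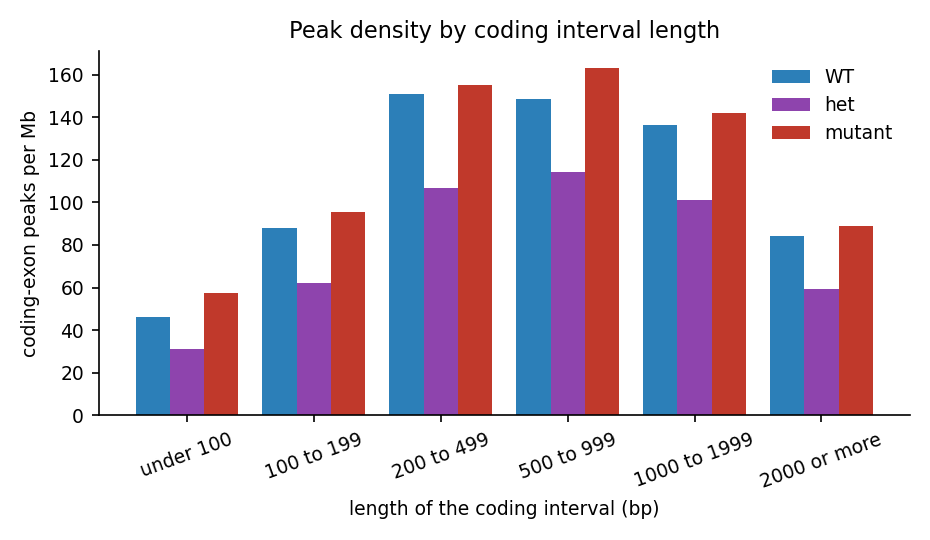
Coding-exon peaks per Mb of coding sequence more than 1 kb from a TSS (y axis, bars from 0) by length of the merged coding interval in bp (x axis), for the WT, het and mutant lists. All lists are lowest under 100 bp and highest between 200 and 1000 bp, where WT stands at 151 and 148 per Mb.

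Within genes, last coding exons were over-represented. They held 658 WT peaks, 26.2%, where last coding exons make up 18.6% of the coding bases considered. Internal exons held 1558 (62.1% of peaks, 72.7% of bases), first coding exons 120 (4.79% and 4.07%) and exons that hold the whole reading frame 171 (6.82% and 4.71%). The bases were counted on a chosen transcript of each gene, while a peak was placed on a transcript that covers its summit. The part of this, of exon length and of GC content in these shares was not tested. In mutant the last coding exons held 25.7% and in het 28.7%. The median WT summit was 60.7% of the way along the reading frame and 6285 bp from the nearest TSS. For 888 WT peaks the nearest TSS was more than 10 kb away.

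The sequence under the summits was rich in GC and CpG. Median GC was 57.2% in WT coding-exon windows, 50.7% in intron windows and 51.7% over all autosomal WT peaks. The ratio of observed to expected CpG was 0.401, 0.195 and 0.219. Coding exons without a peak in any list gave lower values, with a median GC of 48.8% and a CpG ratio of 0.312 in 133114 windows at the middle of the coding interval, against 55.7% and 0.396 in 3652 such windows of intervals that held a peak. In intervals under 200 bp such a window takes in bases beyond the coding sequence, and short intervals more rarely held a peak. The part of interval length in these gaps was not tested.

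Short motifs were counted on both strands in the same windows. CAGCTG, an E-box of the kind bound by basic helix-loop-helix factors, was in 32.7% of WT coding-exon windows against 23.6% of all autosomal WT windows. CAGATG, the E-box variant linked to Atoh1 and Neurod1, was in 31.0% against 28.7%. The letters CAGCAGG were in 17.9% against 12.2%. TGANTCA, the AP-1 site, was in 4.19% against 6.24%, and the CTCF motif in 2.59% against 3.22%. The REST motif was in 0 of 2507 WT coding-exon windows and in 35 of 149637 over all WT peaks. Other WT windows away from a TSS held CAGATG as often, at 31.9% in introns and 31.1% in intergenic DNA, against 15.6% of TSS windows. CAGCTG was in 25.4% of intron and 23.7% of intergenic windows. Against coding intervals without a peak, which held CAGCTG in 14.6%, CAGATG in 18.2% and the CTCF motif in 0.104%, intervals with a peak held them in 28.5%, 26.9% and 1.78%. GC content and interval length differed between these sets as well, and their part in the motif counts was not tested. Of the printed windows, those of Slc1a6, Epha3 and Chd7 held CAGCTG, those of Cntnap2, Lrp1b and Trrap held CAGATG, and that of Zfp462 held neither. In Cntnap2 the match ran across the border of intron and exon. A match is only a run of letters and not a bound site.

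In WT, 635 of 2507 coding-exon peaks, 25.3% (23.7 to 27.1), had no overlapping mutant peak. Over all autosomal WT peaks the share was 23%. In the other direction, 778 of 2688 mutant peaks, 28.9% (27.3 to 30.7), had no overlapping WT peak, where the share over all autosomal mutant peaks was 30.8%. Both shares lay near the background. The share moved with peak strength. In the weakest decile of the WT list 68.6% of coding-exon peaks were unshared (65.9% of all peaks) and in decile 5 it was 16.9% (20.5%). None of the 240 in decile 9 and the 126 in decile 10 was unshared. Weighted to the strength of the coding-exon peaks, all autosomal WT peaks gave 24.9% and intron peaks 23.6%. In mutant the same weighting gave 33.3% over all peaks and 33.5% in introns, against 28.9% in coding exons.

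**Figure D3:**
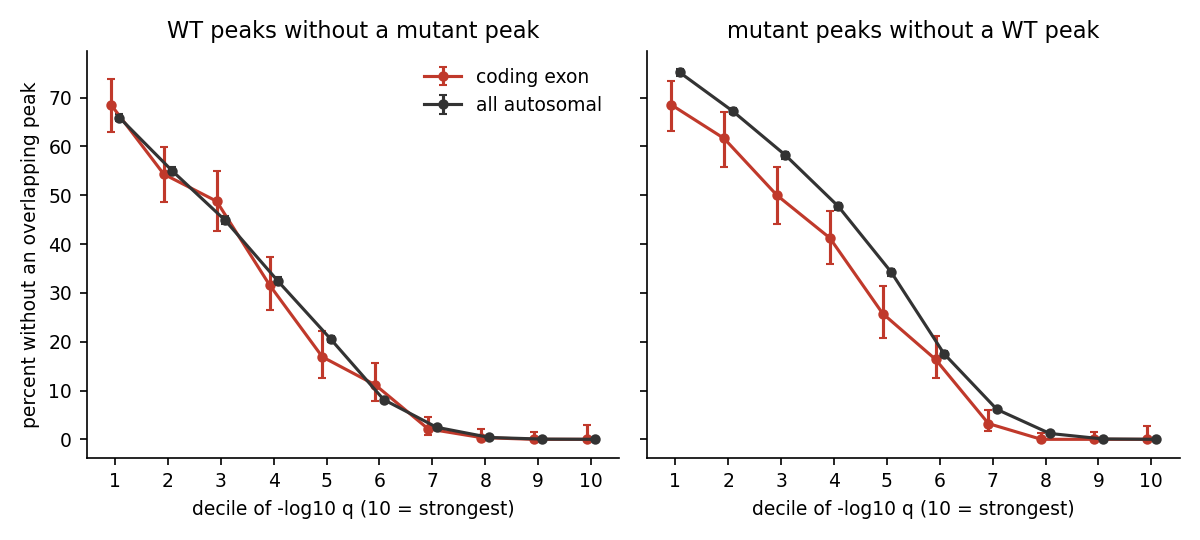
Percent of peaks without an overlapping peak in the other list (y axis) by decile of the list in -log10 q (x axis, 10 strongest), for coding-exon peaks and all autosomal peaks, with 95% Wilson bars. In WT (left) both curves run together from 68.6% and 65.9% down to 0, and in mutant (right) the coding-exon curve is lower in the weakest decile, at 68.6% against 75.2%.

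Unshared coding-exon peaks were weak. Their median pileup was 11 in both lists, against 20 for shared peaks, and their median -log10 q was 3.30 in WT and 3.61 in mutant, against 8.63 and 9.02. They were also poorer in motifs, with CTCF in 0.787% of unshared against 3.21% of shared WT peaks. CAGCTG was in 26.8% against 34.8%, CAGATG in 26.9% against 32.4% and CAGCAGG in 16.7% against 18.4%. The part of peak strength in these gaps was not tested. By exon type, 27.5% of WT peaks in internal exons were unshared (25.3 to 29.7), 22.3% in last coding exons (19.3 to 25.7), 22.5% in first coding exons (15.9 to 30.8) and 19.3% in exons with the whole reading frame (14.1 to 25.9), against 25.3% overall. Strength moved with exon type, with a median -log10 q of 5.88 in internal exons, 6.72 in last exons and 7.05 in exons with the whole frame, and its part in these shares was not tested. In mutant the shares were 32.4% (30.2 to 34.7), 23.5% (20.5 to 26.8), 27.9% (21.1 to 36.0) and 17.3% (12.3 to 23.7).

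Few strong peaks were private to a list. Of 821 WT coding-exon peaks with -log10 q of 10 or more, 2 had no mutant peak within 300 bp, or 0.244% (0.0668 to 0.884), against 0.41% over all WT peaks of that strength. They were in exon 6 of Snx24, which encodes a sorting nexin, and in exon 3 of Zfr, which encodes an RNA-binding zinc finger protein. Of 869 such mutant peaks 4 had no WT peak within 300 bp, 0.46% (0.179 to 1.18), against 1.11% over all mutant peaks. These were in Ppp2r5a, Zfp462, Gm17660 and Virma. The Zfr and Gm17660 peaks, which were named after their values were seen, had a het peak with a pileup of 15 and 21.

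The strongest peaks found in WT alone, with neither a mutant nor a het peak within 300 bp, were modest. That of Snx24 had a pileup of 23, a fold enrichment over local background of 7.11 and a -log10 q of 13.2. Ralgapa2, a Ral GTPase-activating subunit, had a pileup of 23 in exon 38 of 41. Lrp1b, a receptor of the LDL receptor family, and Arhgap32 had 16 each, in exon 84 of 91 and exon 3 of 22. Marveld2, which encodes tricellulin of tight junctions, had 19. In all, 436 WT coding-exon peaks, 17.4% (16.0 to 18.9), had no peak of either other list within 300 bp, against 17% over all autosomal WT peaks.

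The strongest found in mutant alone were of the same height. Ppp2r5a, a regulatory subunit of protein phosphatase PP2A, had a pileup of 23 in its last exon, and Cenpf, a kinetochore protein, had 23 in exon 11. Zfp462, a zinc finger protein, had 20 at chr4:55013588-55014077, in an exon of 5594 bp. Virma, a subunit of the RNA m6A methyltransferase complex, had 17, and Cadm2, a synaptic adhesion molecule, had 16. In all, 545 mutant coding-exon peaks, 20.3% (18.8 to 21.8), stood alone in this way, against 22.6% over all autosomal mutant peaks.

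The het list held fewer peaks and left more unmatched. In WT 946 coding-exon peaks, 37.7% (35.9 to 39.6), had no overlapping het peak, against 37% over all autosomal WT peaks, and in mutant 1060, 39.4% (37.6 to 41.3), against 41.4%. Among the 635 WT coding-exon peaks that no mutant peak overlapped, 110 overlapped a het peak, 17.3% (14.6 to 20.5), against 13.1% over all such WT peaks. Among the 1872 with a mutant peak it was 1451, 77.5% (75.6 to 79.3), against 77.8% over all shared WT peaks. Among the 778 mutant coding-exon peaks that no WT peak overlapped it was 140, against 15.2% over all such mutant peaks. Of the 1800 het coding-exon peaks 84.9% overlapped a WT peak and 86.4% a mutant peak, against 86.7% and 89.3% of all autosomal het peaks. A mutant as well as a het peak overlapped 57.9% of the WT coding-exon peaks (55.9 to 59.8), against 59.96% of all autosomal WT peaks. By joined region, 1941 of 3757 coding-exon regions had a peak in all 3 lists, 51.7%, against 45.5% of all autosomal regions. In WT alone were 433, 11.5% (13.4% of all regions), and in mutant alone 539, 14.3% (20.1%). A joined region was counted if any of its peaks was a coding-exon peak. Regions with peaks in more lists were therefore more easily counted, and the gaps to all regions cannot be read as a trait of coding exons.

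Shared peaks kept their place. The summits of 1872 WT coding-exon peaks and their mutant partners were a median of 30 bp apart, against 28 bp over all shared peaks, and 85.4% were within 100 bp. The partner summit was itself in a coding exon away from a TSS in 1577 of them, 84.2%, and in an intron in 225.

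Height was compared as the log2 ratio of mutant to WT pileup, each scaled to its tags, less the median over all 115262 shared autosomal peaks. The median over 1872 shared coding-exon peaks was -0.09, with quartiles of -0.27 and 0.16, and 58.0% had a centred ratio below 0, against 49.7% over all shared peaks. As deposited, the pileup was lower in mutant in 42.7%, equal in 8.87% and higher in 48.4%, against 34.3%, 8.18% and 57.5% of all shared peaks. Since pileups are whole numbers, -0.09 is the value of equal pileup in both lists. The median coding-exon peak thus had the same pileup in WT and mutant, and without the centring its log2 ratio was -0.018. Intron peaks had a median of 0.01 and TSS peaks of -0.01. At 60% GC or more the coding-exon median was again -0.09, with 61.8% lower, against -0.04 and 54.4% for introns in that bin. Among peaks with a pileup of 30 or more in both lists, 66.0% of 421 coding-exon peaks had a centred ratio below 0, against 59.2% of all 30432.

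Large differences were rare. At least 2-fold lower in mutant were 13 shared coding-exon peaks, 0.694%, where the share over all shared peaks was 0.598%, and at least 2-fold higher were 12, 0.641%, against 0.985%. With mutant peaks as the query, 31 of 1910 were lower, 1.62% (1.96% of all), and 5 were higher, 0.262% (0.53% of all). A WT peak can overlap a wide mutant peak whose summit lies elsewhere, so the counts were repeated for the 1599 WT peaks with the mutant summit within 100 bp, a limit chosen after seeing the data. Of these 12 were lower, 0.75% (0.62% of all such peaks), but only 1 was higher, 0.0625% (0.48%). With a pileup of 30 or more in both lists, 0 of 421 coding-exon peaks were 2-fold lower (0.0197% of all such peaks) and 1 was higher (0.0986%), and with the summit limit 0 of 382 were lower (0.0179%) and 0 higher (0%). This filter drops any peak that falls below 30 in mutant, so it cannot show how rare falls are. With a WT rank by -log10 q over 50%, a limit that favours falls, 13 of 1142 were lower, 1.14% (0.928% of all such peaks). None was higher (0.154%). Among named peaks, the mutant summit was over 100 bp away in Fmn2, Zfp385a (264 bp), Foxb2 (196 bp) and, by the least, Foxo6, and the het summit in Fmn2, Chd7 exon 26 (596 bp), Zfpm2 (551 bp), Zfp385a (228 bp), Foxb2 (180 bp) and Fat2 (144 bp).

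**Figure D4:**
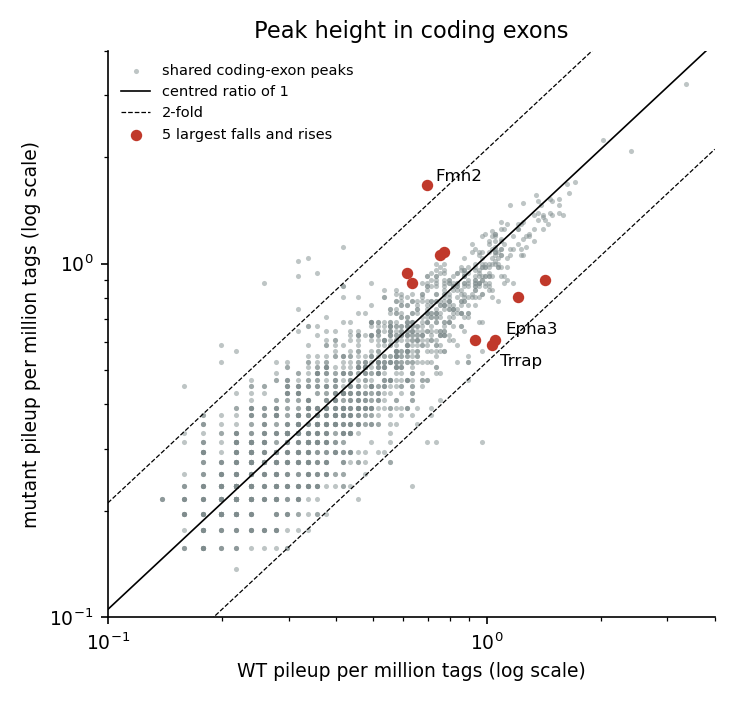
Height of the 1872 shared coding-exon peaks as pileup scaled to sequenced tags in WT (x axis) and mutant (y axis), both on log scales. The solid line marks a centred ratio of 1, the dashed lines 2-fold, and the 10 red points the 5 largest falls and 5 largest rises with a pileup of 30 or more in both lists, of which Fmn2, whose mutant summit lies 1593 bp from the WT summit, is beyond the 2-fold line.

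The 1 peak beyond 2-fold at that height was in exon 1 of Fmn2, a formin that nucleates actin filaments, at chr1:174503148-174503722, and it compared different places. The WT summit, with a pileup of 35, lay 1617 bp from a TSS. The overlapping mutant peak, chr1:174501623-174503727, had its summit, of pileup 85, at 24 bp from a TSS, and the het peak had its summit, of pileup 150, at 39 bp. The ratio of 1.19 (exact counting interval 0.60 to 1.80) therefore sets a coding summit against a promoter summit and is no measure of the coding-exon peak. The other 4 of the largest rises had intervals that included 0. In Lamb1, a laminin beta chain, the peak in exon 26 had a pileup of 31 in WT and 48 in mutant (0.54, -0.14 to 1.24), and that in exon 19 had 39 and 55 (0.40, -0.22 to 1.03). Garem2 had 38 and 54, and BC035044 had 32 and 45.

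Among shared coding-exon peaks with a pileup of 30 or more in both lists, the largest falls reached less than 2-fold. The 13 falls of 2-fold or more lay outside this limit. In Trrap, a scaffold of histone acetyltransferase complexes, the peak in exon 64 of 71 (chr5:144845253-144845869) had a pileup of 52 in WT, 55 in het and 30 in mutant. Its centred log2 ratio was -0.89 (-1.59 to -0.21), or 1.85-fold. In Epha3, an ephrin receptor, the peak in exon 15 of 17 (chr16:63566228-63566838) had 53, 49 and 31, for a ratio of -0.87 (-1.56 to -0.20). Mef2c, a MADS-box transcription factor of neurons and muscle, had 72, 74 and 46 in exon 10 (-0.74, -1.31 to -0.19). Robo1, a receptor for Slit guidance cues, had 61, 73 and 41 in exon 26 (-0.67, -1.27 to -0.07). Sspo, which encodes SCO-spondin, had 47, 48 and 31 in exon 67 (-0.69, -1.40 to -0.01). These peaks were chosen as the extremes of 421, and the intervals take no account of that choice.

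**Figure D5:**
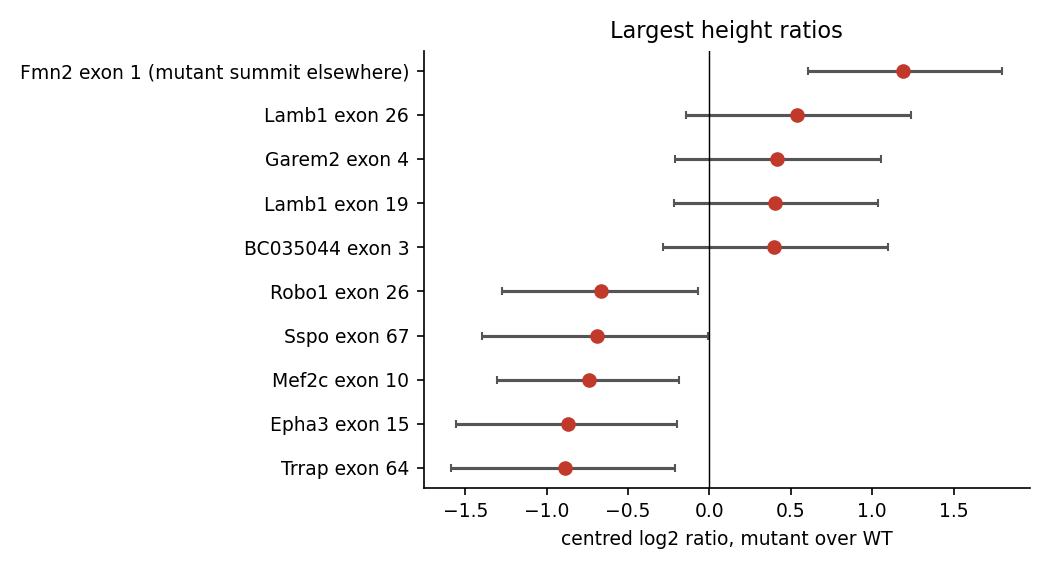
Centred log2 ratio of mutant to WT pileup (x axis) for the 5 largest rises and 5 largest falls among shared coding-exon peaks with a pileup of 30 or more in both lists, with exact 95% counting intervals. The 5 falls lie between -0.89 and -0.67 and 4 rises have intervals that include 0, while the Fmn2 value of 1.19 compares a WT coding summit with a mutant promoter summit 1593 bp away.

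The 10 strongest WT coding-exon peaks with a het and a mutant peak, taken as 1 per gene, differed little in height between WT and mutant. The first by -log10 q, in the predicted gene Gm21738, is uncertain, since the 32 bases at its summit occur 17 times on the chromosomes, X and Y included. The other 9 genes had a pileup of 73 to 86 in WT, with centred log2 ratios of -0.24 to -0.06. Slc1a6, which encodes a glutamate transporter of Purkinje cells, had a pileup of 73 in WT, 91 in het and 66 in mutant at chr10:78812524-78813131, in exon 9 of 10 and 32156 bp from the nearest TSS. Cntnap2, a neuronal adhesion molecule, had 83, 114 and 81 at chr6:46346683-46347561, in exon 11 of 24. St18, a zinc finger transcription factor, had 78, 104 and 71 in exon 13 of 24. Sequence copies were rare elsewhere, with 28 of 2507 WT coding-exon peaks, 1.12%, having the 32 bases at the summit more than once.
The same rule named Chia1, a chitinase, with WT, het and mutant pileups of 86, 139 and 87. Pkd1l1, of the polycystin family, had 78, 114 and 78. Stac, an adaptor protein, had 78, 118 and 75, and Bcat2, a mitochondrial aminotransferase of branched-chain amino acids, had 75, 113 and 77. Adamts5, an aggrecan-cleaving protease, had 75, 114 and 70, and Smap1, a GTPase-activating protein for Arf, had 74, 112 and 71. The E-box CAGATG or CAGCTG was in the window of each of the 9 genes other than Gm21738, which had neither. Singly, CAGATG was in 31.0% and CAGCTG in 32.7% of all WT coding-exon windows. The share with either was not counted, so these windows cannot be set against it.

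A few long genes held many coding-exon peaks. Of 3006 genes with a coding-exon region, 2479 had 1 and 19 had 5 or more. Syne1, which encodes the nuclear envelope spectrin-repeat protein nesprin, had 15 regions over 25.1 kb of coding sequence, 0.597 per kb, against 0.157 over all genes. Syne1 held 11 WT, 9 het and 14 mutant peaks, and its tallest WT peak, in exon 89 of 146, had a pileup of 63 in WT, 92 in het and 76 in mutant. Of the 9 Syne1 WT peaks that overlapped a mutant peak, 2 had a lower pileup in mutant and 7 a higher one. Lama2, the laminin alpha chain of muscle and peripheral nerve, was the densest of the 5 leading genes, with 11 regions, 1.22 per kb. Lama2 held 10 WT, 4 het and 7 mutant peaks. Of the 8 Lama2 WT peaks that overlapped a mutant peak, with its summit in a coding exon or not, 5 had a lower pileup in mutant, 1 an equal and 2 a higher one, with a median centred log2 ratio of -0.40, and the largest fall was in exon 24, where the pileup was 35 in WT, 22 in het and 16 in mutant (-1.22). Its peaks in exons 4 and 39 were higher, with 11 and 18, and 19 and 33. Adgrv1, an adhesion receptor of the inner ear, and Dnah11, an axonemal dynein, had 8 regions each, and Lrp1b, Ryr3 and Utrn had 7 each. Since these are the largest of many genes and their peaks share libraries, the counts are a description.

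Chd7 itself held 3 coding-exon peaks, in exons 16, 26 and 38 of 38. Each overlapped a peak of both other lists. In exon 16 the WT pileup was 42, the het 50 and the mutant 44. In exon 26 the WT pileup was 40 and the mutant 39, while the overlapping het peak had its summit outside the exon. In exon 38 (chr4:8865677-8866594) the pileups were 61, 108 and 64. The centred log2 ratios of mutant to WT were -0.03, -0.13 and -0.02. Peak lists do not show the deleted part of Chd7 and so do not check the genotype.

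Of 12 genes that the study follows, 8 had a coding-exon peak in some list. Reln, the extracellular guide of neuronal migration, had 3 in WT. In exon 22 the pileup was 26 in WT, 27 in het and 32 in mutant, in exon 41 it was 18, 19 and 16, and in exon 60 it was 9 in WT and 14 in het with no mutant peak. Bmp5, a bone morphogenetic protein, had 15 and 15 in exon 1 and Zfpm2, a GATA cofactor, 14 and 17 in exon 8, both without a mutant peak. The Bmp5 WT summit lay 1024 bp from a TSS, just beyond the 1 kb limit. Fstl5 had 9 and 13 and no mutant peak. Unc5c, a netrin receptor, had a WT peak of 9 in exon 3 and a mutant peak of 10 in exon 6. Cadps2, of vesicle release, had a mutant peak of 10 alone, and Cnksr3 a het peak of 19 alone. Of the 10 WT peaks in these genes 5 had no mutant peak, 50% (23.7 to 76.3), against 25.3% of all WT coding-exon peaks, and their pileups were 9 to 15. The study gives Cadps2, Nkain3, Reln, Bmp5 and Fstl5 as examples of decreased ATAC-seq peaks in these same libraries. The genes were thus partly chosen on these data, and the share is no independent result. Top2b, Gap43, Neurod1 and Nkain3 had no coding-exon peak.

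Gene groups differed in how often their coding exons held a peak. Over all protein-coding genes with coding sequence away from a TSS, 11.4% had a WT coding-exon peak. Of 125 genes that the study lists as activated by Chd7, 39 had one, 31.2%, and of 182 activated by both Chd7 and Top2b, a type II topoisomerase, 75 had one, 41.2%. The first list came from RNA-seq of the same mutant genotype and the second from cultured granule neurons, where the study kept only those members of a longer list, not used here, whose expression also increased as the neurons differentiated, and of their 151 and 203 names 128 and 186 were matched on the autosomes. Density was 226 and 259 WT peaks per Mb of coding sequence, against 105 over all genes. In the mutant list 38 and 67 of these genes had one. Of the 47 WT peaks in Chd7-activated genes 11 had no mutant peak, 23.4% (13.6 to 37.2), and of the 110 in the other list 32, 29.1% (21.4 to 38.2), against 25.3% of all WT coding-exon peaks. Of 36 shared peaks in Chd7-activated genes 21 had a centred ratio below 0, against 58.0% of all shared coding-exon peaks, with a median of -0.09, the same as over all coding-exon peaks. Epha3 was among them, and so was Nova1, a neuronal splicing regulator, with 72, 111 and 68 in exon 5.

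Among developmental regulators, 9 of 16 Sox genes, 56.2%, had a WT coding-exon peak, with 617 per Mb. Sox5 had the tallest, with 71 in WT, 100 in het and 70 in mutant in exon 2, and Sox30 and Sox6 had 23 and 24 in WT. Fox genes had one in 8 of 36, led by Foxo6 with a WT pileup of 31, Foxb2 with 33 and Foxj2 with 18. Hox cluster genes had one in 2 of 31, Hoxb8 and Hoxb2, with 11 and 9. Of granule progenitor and hedgehog genes 9 of 34 had one. Gli3, a hedgehog effector, had 38 in WT, 30 in het and 25 in mutant in exon 6 (-0.70, -1.49 to 0.07), Boc, a hedgehog co-receptor, had 47, 63 and 41, and Tcf4, an E-protein partner of basic helix-loop-helix factors, had 27, 30 and 30. Of 9 shared peaks in this group 3 had a centred ratio below 0, against 58.0% of all shared coding-exon peaks, with a median of 0.06. Zinc finger genes had a peak in only 35 of 445, 7.87%, led by Zfp697 with 82, 147 and 86, Zbtb24 with 47, 66 and 46, and Zfp385a with 53, 66 and 62.

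Synapse scaffold genes had a WT coding-exon peak in 11 of 23, led by Shank3 with 48, 80 and 54. Of their 18 WT peaks 9 had no mutant peak, 50% (29.0 to 71.0), against 25.3% of all WT coding-exon peaks, and these 9 had pileups of 10 to 17. In the other direction, 6 of the 16 mutant peaks in these genes had no WT peak, 37.5%, against 28.9% of all mutant coding-exon peaks. The part of peak strength in both shares was not tested. Bsn, a presynaptic scaffold, had 19, 19 and 16. Chromatin regulators had one in 10 of 45, and their 3 strongest were those of Chd7 in exons 38 and 16 and that of Trrap. Giant cadherins had one in 6 of 9, with Fat3 at 39, 64 and 42, Fat2 at 37, 55 and 47, and Fat4 at 26, 39 and 27. Collagens had one in 11 of 43, with Col6a3 at 69, 106 and 68 in exon 37 and Col17a1 at 32, 44 and 35. By density these last groups lay below the 105 WT peaks per Mb of all genes. Chromatin regulators held 57.9 per Mb of coding sequence, giant cadherins 90.3 and collagens 78.2. Keratins, structural proteins of epithelia, had one in 9 of 51, and the WT pileup of Krt90 was 32, of Krt88 26 and of Krt77 21. Of the 8 shared keratin peaks 2 had a centred ratio below 0, against 58.0% of all shared coding-exon peaks, with a median of 0.25.

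Olfactory and vomeronasal receptor genes, whose reading frame often lies in a lone exon, had a WT coding-exon peak in 9 of 440, 2.05%, with 22.2 per Mb. The tallest was in Olfr70, with 44 in WT, 57 in het and 47 in mutant, followed by Olfr95 with 34, 41 and 40 and Olfr1130 with 11 in WT and 15 in mutant. Clustered protocadherins had one in 4 of 55, all low, with Pcdha2 and Pcdhb6 at 9 in WT alone and Pcdhb3 at 8 in WT and 11 in mutant. The 32 bases at the Pcdhb3 summit occur 2 times on the chromosomes, X and Y included, so this peak is uncertain.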

How the data were processed

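ATAC-seq was measured in 8 libraries of postnatal day 7 GNPs. The submitters' processing notes name mm10, Trim Galore 0.4.1, Picard 1.139 and, for WT and mutant, STAR 2.5.0b or, for het, Bowtie 1.0.0. Per the file headers, the authors called peaks with MACS2 2.1.0.20150731 at a q-value cutoff of 0.05 on the pooled libraries of each genotype. The study's methods describe Bowtie and a read shift for every genotype, which the WT and mutant headers do not show. The signal (pileup at the summit, in extended tags), the fold enrichment ratio over local background, and the -log10 q values were deposited by the authors and not scaled to depth.

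Summits were placed on GENCODE M21. In all, 0 peaks ran past a chromosome end of the mm10 reference and 0 columns were left without a group. A peak was shared when it overlapped a peak of the other list by 1 bp or more. Pileup was divided by the tags in the header, and the log2 ratio of mutant to WT used the strongest overlapping peak and was centred by 0.08. Exact counting intervals of this ratio and Wilson 95% intervals of shares cover counting error alone, and PCR copies and neighbouring peaks are not independent. Named peaks were the 10 strongest WT peaks shared by all lists, the 5 strongest of WT alone and of mutant alone, the 5 largest rises and falls at a pileup of 30 or more, the 5 genes with most regions, every peak in 12 genes of the study, and the 3 strongest of each gene list, of which some are not reported here. Gene lists of the study were used for names. The members and lists were chosen with earlier results of these data known. The overlap and distance functions were tested on simulated data. Calculations used python, numpy 2.4.6 and pandas 2.3.3. Peaks on sex chromosomes were not analysed here.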

Additional observations from a re-analysis of the deposited data

How the results depend on the processing

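No paired analysis was possible because each list was called on pooled libraries, and for the same reason no library could be left out in turn. With -log10 q of 5 or more, the coding-exon peaks fell to 1460 in WT and 1593 in mutant. With lists of equal length there were 1677 in WT and 1535 in mutant, so that mutant had fewer than WT. The cause was not tested. The other settings for the members (TSS distance, TSS set, CCDS, overlap with coding exons) stayed within 1.5 times.

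The share of WT coding-exon peaks without a mutant peak was 38.4% at 50% reciprocal overlap, 21.0% within 300 bp, 6.03% for query peaks with -log10 q of 5 or more and 16.6% with that limit in both lists (all WT peaks 36.1%, 19.5%, 5.79% and 13.7%). The mutant share was 42.3%, 24.8%, 9.67% and 23.0% (all mutant peaks 43.9%, 26.5%, 11.1% and 24.0%), and with lists of equal length it was 16.8% (18.7%). In WT, equal length gave 23.9% (19.6%). The median log2 ratio was -0.042 by fold enrichment and -0.018 without centring. Without a het peak within 300 bp were 34.2% of WT coding-exon peaks. In a window of 50 bases to either side of the summit, GC was 58.4%, CAGCTG 21.6%, CAGATG 20.7%, CAGCAGG 12.0% and TGANTCA 2.27%. With the mutant summit within 100 bp, an alternative chosen after seeing the data, the median stayed at -0.093. The named rises and falls other than Fmn2, whose value compares different summits, kept their direction by fold enrichment and without centring, and the choice of the nearest summit left the same partner. Unshared coding-exon peaks had a median pileup of 11, against 20 for shared ones.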
